A study of Danio rerio with 697 samples.

Results

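The nuclear genes of the respiratory chain were followed in sorted beta cells of zebrafish larvae. They were chosen by symbol alone: every gene outside the mitochondrial chromosome whose symbol, ignoring case, begins with nduf, uqcr, atp5 or cox4 to cox8, or is sdha, sdhb, sdhc or sdhd. This gave 89 subunit genes and 15 further genes out of the 32520 genes counted, all of which are called members here. Of the subunit genes 38 belong to complex I, 5 to complex II, 8 to complex III, 20 to complex IV and 18 to the ATP synthase. The further 15 are 4 genes of the ndufa4 family, 8 assembly factors of complex I, 2 inhibitors of the ATP synthase and cox7a2l, which is known in mammals for a role in joining complexes into supercomplexes.

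The respiratory chain sits in the inner mitochondrial membrane. Complexes I and II feed electrons into ubiquinone, complex III passes them to cytochrome c and complex IV hands them to oxygen. The proton gradient built on the way drives the ATP synthase, also called complex V. Most subunits are encoded in the nucleus and imported, while a small core of complexes I, III, IV and V is encoded by the mitochondrial genome. In a beta cell, ATP made from glucose closes potassium channels, which depolarizes the membrane, opens calcium channels and releases insulin.

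The study addressed how beta cells respond to an overload of calcium. Larvae carried Tg(ins:TRPV), which places the rat cation channel TRPV under the insulin promoter, together with Tg(ins:Kaede), a fluorescent reporter under the same promoter. Capsaicin (csn) opens that channel. All groups compared received csn. The control larvae had Tg(ins:Kaede) but no channel and were treated for 48 h, between 3 and 5 dpf (days post fertilization). The 24-h larvae had both transgenes and were treated for 24 h, from 4 to 5 dpf by the description of the series. The 48-h larvae had both transgenes and were treated for 48 h, from 3 to 5 dpf, and came as 2 labelled sets, called here set 1 and set 2, whose difference the labels do not give. Islets of pooled larvae, 20 per treatment, were dissociated, stained with calcein, sorted by fluorescence and profiled by Smart-seq2, with 1 cell per well. Control, 24-h and 48-h cells sat on plates 1, 2 and 3, so treatment and plate cannot be told apart, and both 48-h sets shared plate 3.

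A well was kept if it had 200 or more genes with a count and no more than 40% of counts on the 13 protein genes encoded in the mitochondrion, which left 650 of 693 labelled wells. Of these, 540 had over 1000 counts on ins, the insulin gene, and are called ins-high, 70 of them in set 1. The other 110 wells, 6 of the control, 14 of the 24-h set, 56 of set 1 and 34 of set 2, are described apart. The median depth of the ins-high wells was between 414542 counts on genes in set 1 and 659446 in the control, and single wells had between 11807 and 1084018. Listed beta cell markers (6 of 7 found) include ins, the gene by which these wells were chosen. They took from 125460 to 144499 counts per 1000000 counts on genes (CPM) in the 4 sets. By itself ins took 11.6, 13.4, 13.2 and 11.6% of counts in control, 24-h, set 1 and set 2. The high value was thus largely set by the choice of wells. Markers of other cells were not absent, and some lists, but not all, were higher in treated sets. The delta list (3 of 4 found) was at 1570, 14036, 23702 and 15976 CPM in control, 24-h, set 1 and set 2. The alpha list (1 of 3 found) was at 620, 1490, 5435 and 4372 CPM. The erythrocyte list (3 of 5 found) went the other way, at 169.001, 0.167, 0.963 and 0.111 CPM, with 1 control well over 1000 CPM. The T cell list (4 of 4 found) was at 0.692, 1.66, 0.417 and 0.544 CPM, lower than the control in both 48-h sets. The acinar list (7 of 9 found) was at 0.963, 116.4, 968 and 102.6 CPM and the ductal list (3 of 4 found) at 72.4, 228, 449 and 130.6 CPM, both highest in set 1. The part of these cells in the results was not tested. No label names the larvae behind a well, so each set counted as 1 sample, wells were not used as replicates and no test between sets was possible. Intervals below are exact 95% intervals and cover counting error only. Smart-seq2 reads carry no molecular identifiers, so PCR copies count as separate reads.

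Together the members took a larger part of the counts in all 3 treated sets than in the control. Summed over ins-high wells, they held 1.95% of counts on genes in the control (1.95 to 1.95%), 2.63% in the 24-h set (2.62 to 2.63%), 2.85% in set 1 (2.85 to 2.86%) and 2.35% in set 2 (2.34 to 2.35%). The ratios to the control were 0.43, 0.55 and 0.27 on the log2 scale. Set 1 and set 2, which shared treatment and plate, differed by 0.28, so the step between the 48-h sets was as large as the step from control to set 2. Single wells overlapped widely: the lowest, median and highest well held 0.188, 1.81 and 5.25% in the control, 0.0297, 2.38 and 5.77% in the 24-h set, 0.552, 2.63 and 5.95% in set 1, and 0.241, 2.27 and 6.12% in set 2. The median share of spike-in RNA in these wells had the same order as the members' share, at 0.102, 0.241, 0.303 and 0.153% in control, 24-h, set 1 and set 2, and its part in the result was not tested. Leaving out the 6, 18, 13 and 25 wells with over 10000 CPM of alpha, delta and acinar markers, a choice made after seeing the data, gave 0.42, 0.56 and 0.26.

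**Figure D1:**
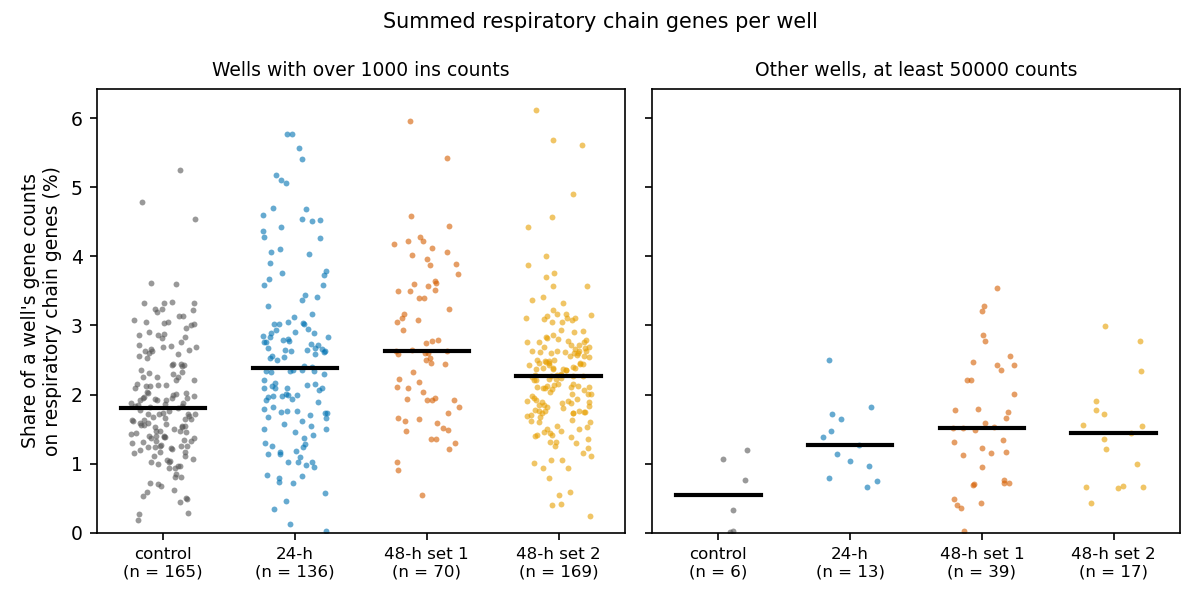
Share of a well's gene counts (%, vertical axis) on the members, 1 point per well and a black bar at the median, for ins-high wells (left) and other wells with at least 50000 counts (right). The ins-high medians are 1.81, 2.38, 2.63 and 2.27% in control, 24-h, set 1 and set 2, with ranges that overlap, and the other wells sit lower, at medians of 0.550, 1.27, 1.51 and 1.44%.

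The rise in the sum was not shared by all complexes. Complex I went from 5113 CPM in the control to 7704, 8121 and 7455 CPM in the 24-h set, set 1 and set 2. Complex IV went from 3749 to 5990, 6360 and 4772 CPM, and the ATP synthase from 5631 to 7667, 9910 and 6779 CPM. Complex II was lower than the control in each treated set, at 605, 432 and 514 CPM against 673. Complex III, at 804 CPM in the control, was at 747, 738 and 1068 CPM. The ndufa4 family fell below the control in each, from 3034 to 2755, 2348 and 2074 CPM. It held 15.6% of all member counts in the control, against 8.22% in set 1.

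Gene by gene, a member was compared with the control where the mean of the 2 pooled values was at least 5 CPM and at least 25% of wells of either set had a count. A gene can pass this filter through the set in which it is high, so the counts below describe the genes that passed and not every member. In the 24-h set 61 members passed: 22 were at least 1.5-fold higher, where 30.2% of all 1087 genes that passed were, and 7 were at least 1.5-fold lower, against 30.7% of all. In set 1, 69 passed, 38 were higher against 37% of 1371 genes, and 8 were lower against 29%. In set 2, 63 passed, 21 were higher against 28.6% of 1173 genes, and 4 were lower against 28.6%. As shares, 36.1, 55.1 and 33.3% of the members that passed were higher and 11.5, 11.6 and 6.35% were lower. The members called lower were thus fewer than the background in each set, while those called higher were close to it in the 24-h set and set 2 and above it in set 1. The median log2 ratio of members was 0.41, 0.62 and 0.40, beside 0.09, 0.21 and 0.01 for all genes that passed. A scaling by the median of gene ratios, which removes the shift of 0.21 in set 1, gave members' medians of 0.31, 0.41 and 0.38. It called 30 of 69 members higher and 13 lower in set 1, against 31% and 34.4% of all genes.

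These ratios rest on few wells for many genes. When each gene was recomputed without its highest well in each set, an alternative added after seeing the data, the members' medians became 0.20, 0.38 and 0.33, beside -0.18, -0.18 and 0.03 for all genes. The numbers at least 1.5-fold higher became 16, 30 and 21, and the numbers lower became 15, 17 and 4. Of all genes, 24.9, 29.9 and 30.5% were then higher and 38.6, 41.7 and 31.5% lower. The single highest well held over 50% of a set's counts for 7, 12 and 2 of the members that passed in the 24-h set, set 1 and set 2.

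**Figure D2:**
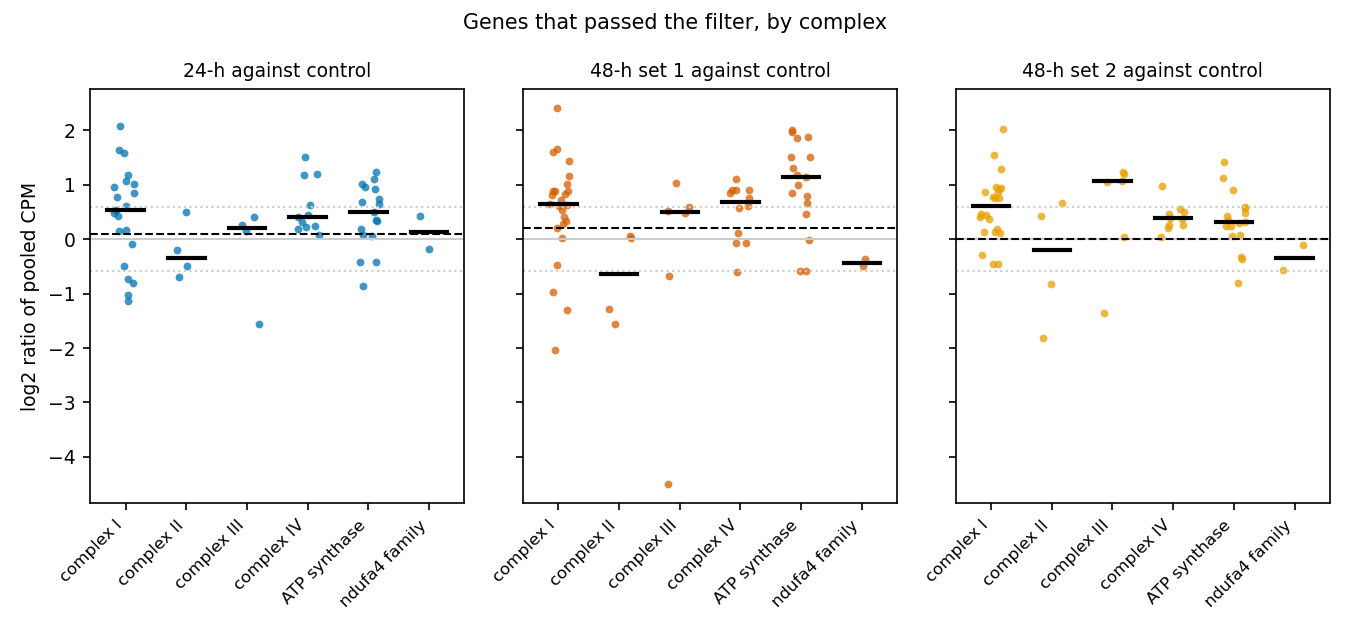
Log2 ratio of pooled CPM to the control (vertical axis) for each gene that passed the filter, by complex, in the 24-h set, set 1 and set 2; black bars are medians, the dashed line is the median of all genes that passed and dotted lines mark 1.5-fold. Medians of complex I are 0.54, 0.64 and 0.61 and those of the ATP synthase 0.49, 1.14 and 0.32, while complex II lies at -0.35, -0.63 and -0.19.

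The levels were not spread evenly over wells. For a given gene most wells had either few counts or far over 100 CPM, and wells at 100 CPM or more, a limit chosen after seeing the data, held between 99.4 and 99.6% of the members' counts. A control well reached 100 CPM for a median of 10 members, with 1 as the lowest and 31 as the highest. The median was 7 in 24-h wells (0 to 56), 13 in set 1 (3 to 36) and 12 in set 2 (1 to 41). All genes followed the same order, with means of 238.3, 184.8, 281.2 and 271.9 genes per well, and members made up 4.58, 4.58, 5.17 and 4.94% of those genes. Below, a well at 100 CPM or more is said to carry a gene.

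The share of wells that carried a gene and the level in those wells moved differently in the 24-h set and the 48-h sets. Of 63 members with at least 5 wells at 100 CPM in both the control and the 24-h set, 50 were carried by a smaller share of 24-h wells. In those wells 50 of the 63 had a higher median level, by 1.70-fold in the median member. In set 1 the shares moved the other way: 56 of 62 members were carried by more wells, while the level in those wells was higher for 27 and lower for 35. In set 2, 54 of 71 were carried by more wells and the level was lower for 47. All genes moved in the same directions. The level in the carrying wells was higher for 65.9, 37.5 and 27.4% of all genes in the 24-h set, set 1 and set 2. For members these shares were 79.4, 43.5 and 33.8%. Of 865 genes, 69.02% were carried by a smaller share of 24-h wells with a median level 1.27-fold that of the control, and 75 and 57.8% of genes were carried by more wells in set 1 and set 2. The median level in the carrying wells at 48 h was -0.25 and -0.40 relative to the control for all genes on the log2 scale, against -0.11 and -0.09 for members.

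Depth was then made equal by drawing 100000 counts from each well. The median member was found in 13.3% of control wells, 10.7% of 24-h wells, 18.1% of set 1 and 16.1% of set 2 wells, where the full depth gave 30.6, 25.4, 35.7 and 31.1%. The 24-h set, set 1 and set 2 each left out 1 shallower well. In set 1 the interval of 11 members lay above that of the control, 15.9% of those that passed, against 10.9% of all genes; these were ndufa6, ndufb7, ndufb8, ndufs7, cox7a2 on chromosome 17, atp5f1a, atp5f1d, atp5mc1, atp5mc3b, atp5pb and atp5pd. In set 2 this held for 5 members, 7.94% against 8.7% of all genes: ndufa6, ndufb7, atp5mc1, atp5if1b and cox7a2 on chromosome 17. It held for none of the 61 in the 24-h set, against 0.828% of all genes. No member's interval lay below the control in any set, against 6.26, 0.729 and 2.56% of all genes. Drawing 50000 counts instead put 2 of all members, passed or not, below the control in the 24-h set. Those above the control numbered 10 in set 1 and 3 in set 2, against 11 and 8 of all members at 100000 counts. The set 2 result thus depended on depth, and the share of all genes at 50000 counts is not given here.

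**Figure D3:**
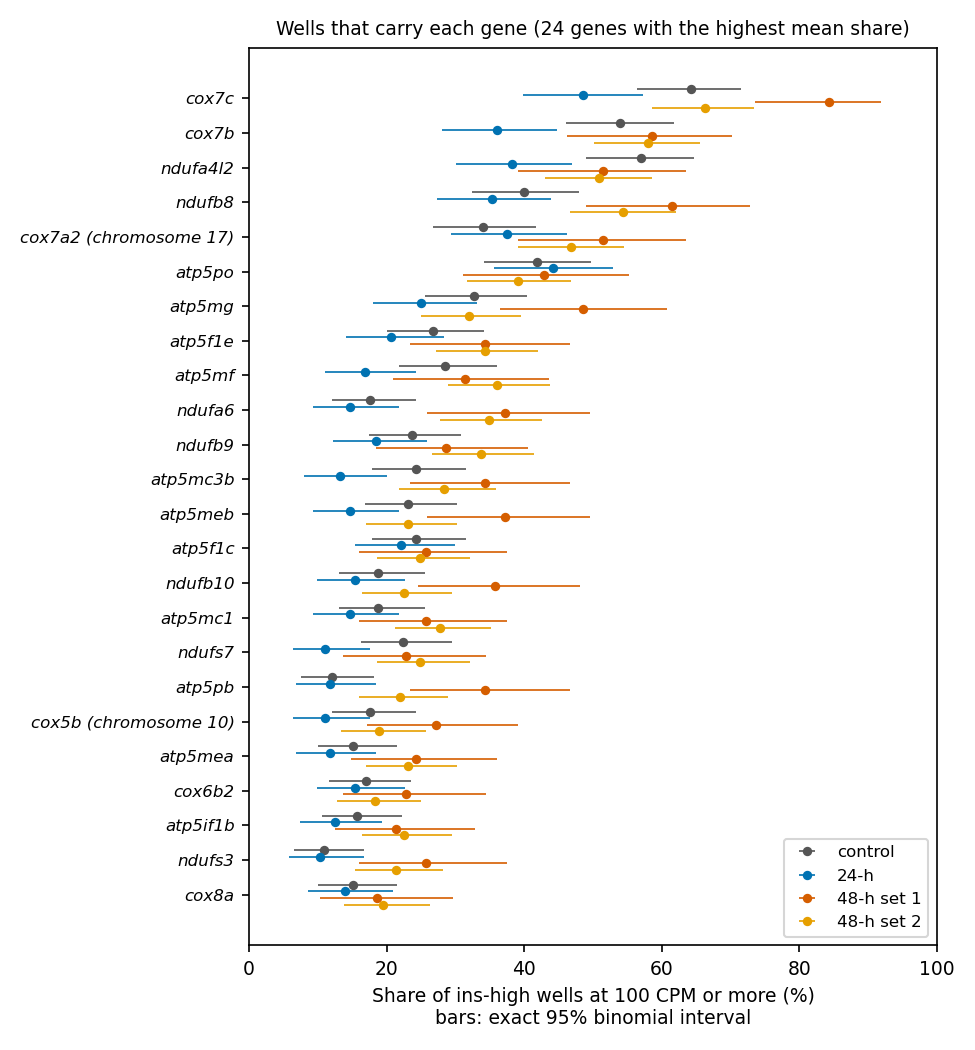
Share of ins-high wells (%, horizontal axis) at 100 CPM or more for the 24 genes with the highest mean share, with exact 95% binomial intervals and 1 colour per set. The share for cox7c is 64.2% in the control, 48.5% in the 24-h set and 84.3% in set 1, and the 24-h points lie to the left of the control for most genes shown.

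Complex I is the entry point for electrons from NADH. Its most abundant member was ndufb8 (ENSDARG00000010113, chromosome 12, 48469755 to 48477031, GRCz11), an accessory subunit of the membrane arm. Its lowest, median and highest ins-high wells were at 0, 11.4 and 14979 CPM in the control, 0, 11.5 and 14894 CPM in the 24-h set, 1.52, 1745 and 10621 CPM in set 1, and 0, 701 and 11029 CPM in set 2. The medians differed far more than the ranges because in both 48-h sets more than 50% of wells carried the gene: the share at 100 CPM was 40% in the control (32.5 to 47.9%), 35.3% in the 24-h set (27.3 to 43.9%), 61.4% in set 1 (49.03 to 72.8%) and 54.4% in set 2 (46.6 to 62.1%). Pooled levels were 1065, 1920, 1896 and 1406 CPM, or 0.85, 0.83 and 0.40 above the control on the log2 scale. The 24-h rise was carried by level, since the median of wells with the gene was 4632 CPM against 2206 in the control, 2613 in set 1 and 2075 in set 2.

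Another accessory subunit, ndufa6 (chromosome 3, 1182315 to 1186100), belongs to the family of LYR-motif proteins. Its pooled level was 140.6 CPM in the control, 195.5 in the 24-h set, 750 in set 1 and 410 in set 2. This placed it among the 3 largest rises of members that passed in both 48-h sets (2.41 and 1.55). It was carried by 17.6% of control wells (12.1 to 24.3%), 14.7% of 24-h wells, 37.1% of set 1 (25.9 to 49.5%) and 34.9% of set 2 wells (27.8 to 42.6%). Both 48-h shares lay above the control interval, and the highest wells were at 2058, 4019, 10707 and 2672 CPM. Its highest well held 30.1% of the set 1 counts, and without each set's highest well the ratios were 2.06 and 1.60.

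Among members that passed the filter, the 3 largest rises in the 24-h set were complex I genes. The small membrane subunit ndufa1 went from 53.5 to 225 CPM (2.07 on the log2 scale, 98.9 and 90.1 CPM in set 1 and set 2). The membrane arm subunit ndufb7 went from 87.4 to 272 CPM and stood at 265 and 214.1 CPM in the 48-h sets, with ratios of 1.64, 1.60 and 1.29. The acyl carrier protein gene ndufab1 went from 254 to 764 CPM, a ratio of 1.59, and was at 338 and 480 CPM in the 48-h sets. These 3 were carried by few wells, from 6.06% of control wells for ndufb7 to 18.3% of set 2 wells for ndufab1, and their ratios without the highest wells in the 24-h comparison were 2.05, 1.80 and 1.68. In set 2 the largest rise among those that passed was ndufb3, a membrane arm subunit, from 36.3 to 147.3 CPM (2.02). Its highest well held 51.02% of that set's counts, and without the highest wells the ratio was 1.32.

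Some complex I genes were lower. In the 24-h set ndufa11 was at 53.9 CPM against 118.6 (-1.14) and ndufa5 at 35.3 CPM against 71.9 (-1.03), both accessory subunits. The direction was not the same at 48 h for ndufa5, which was at 132.4 CPM in set 1 and 52.4 in set 2. In set 1 ndufa8, an intermembrane-space subunit, was at 26.1 CPM against 107 (-2.03), while set 2 had 137.3 CPM. In set 2 none of the 22 complex I genes that passed was 1.5-fold lower, and 11 were higher. The 24-h set had 10 of 21 higher and 4 lower, and in set 1 15 of 25 were higher and 3 lower. Among all genes that passed, 30.2, 37 and 28.6% were higher in the 24-h set, set 1 and set 2. The shares lower were 30.7, 29 and 28.6%.

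Among core subunits of complex I, some of which hold the flavin and the iron-sulfur clusters, ndufs3 and ndufs7 were higher than ndufv1, ndufv2 and ndufs8 in every set, also per kilobase of exon. The level of ndufs3 was 374, 568, 545 and 516 CPM in control, 24-h, set 1 and set 2, and that of ndufs7 was 454, 323, 526 and 501 CPM. The NADH-binding subunit ndufv1 was at 1.95 CPM in the control, 0.419 in the 24-h set, 25.0 in set 1 and 146.8 in set 2, its partner ndufv2 at 61.4, 7.84, 194.1 and 102.8 CPM, and ndufs8 at 0.122, 43.5, 14.5 and 1.57 CPM. Some of the lowest values came from 1 well each, which held 98.3% of the 24-h counts of ndufs8 and 94.3% of the control counts of ndufv1. The set 2 value of ndufv1 came from more wells, with 99.6% of its counts in 8 wells at 100 CPM or more. For ndufv2 such wells numbered 4, 2, 5 and 10 in control, 24-h, set 1 and set 2. The largest core subunit, ndufs1, had 0 counts in all wells of the table, as did ndufb4. Of their exon bases, 98.3 and 75.4% lie under exons of other genes, ino80db on the same strand for ndufs1 and hgd with another gene on the opposite strand for ndufb4, so a zero there does not measure the transcript. The levels of ndufb11, uqcrb and ndufaf3 are uncertain in the same way, with 66.4, 52.02 and 51.9% of exon bases shared.

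Complex II, succinate dehydrogenase, also acts in the citrate cycle and has no subunit from the mitochondrial genome. Its iron-sulfur subunit sdhb (chromosome 22, 11395 to 18224) was at 253 CPM in the control (250 to 256), 178.7 in the 24-h set (175.6 to 181.8), 85.9 in set 1 (82.6 to 89.2) and 71.9 in set 2 (70.1 to 73.8). It was among the 3 largest falls of members that passed in both 48-h sets, by 1.56 and 1.81 on the log2 scale. The median well was at 0 CPM in all 4 sets, and wells at 100 CPM or more numbered 15, 6, 2 and 8, or 9.09% (5.18 to 14.6%), 4.41% (1.64 to 9.36%), 2.86% (0.348 to 9.94%) and 4.73% (2.07 to 9.11%). These intervals overlap. In set 1 a single well held 96.7% of the counts.

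The membrane anchor sdhc was at 194.3, 120, 196.3 and 110 CPM, lower than the control in the 24-h set and set 2 (-0.69 and -0.82) and level with it in set 1. The flavoprotein sdha was at 91.7, 130, 95.03 and 145.5 CPM. Of the 2 genes named sdhd, the one on chromosome 15 was at 134.4, 117.2, 55.3 and 181.6 CPM, and the one on chromosome 5 was under 6 CPM except in the 24-h set, where 1 well held 99.9% of its 59.17 CPM. The 4 genes of complex II that passed thus moved in different directions in set 2, where 1 was higher and 2 were lower. In the 24-h set 0 of 4 were higher and 1 was lower, and in set 1 these were 0 and 2. Among all genes that passed, 30.2, 37 and 28.6% were higher in the 24-h set, set 1 and set 2. The shares lower were 30.7, 29 and 28.6%.

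Complex III genes were among the lowest. The core protein uqcrc1 (chromosome 6, 22337081 to 22351939) had the largest fall among members that passed the filter in the 24-h set and set 1, from 246 CPM in the control (243 to 249) to 83.9 in the 24-h set, 10.9 in set 1 (9.75 to 12.1) and 96.5 in set 2. The ratios were -1.55, -4.50 and -1.35. The highest wells were at 6709, 7947, 944 and 5716 CPM and the median well was at 0 CPM in all sets. Wells at 100 CPM or more numbered 10, 5, 1 and 11, and their shares of 6.06% (2.94 to 10.9%), 3.68% (1.204 to 8.37%), 1.43% (0.0362 to 7.70%) and 6.51% (3.29 to 11.3%) had overlapping intervals. The fall therefore rests on few wells.

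The small subunit uqcr10 went the other way, at 132.9, 160, 271 and 280 CPM, with ratios of 0.26, 1.03 and 1.08. The Rieske iron-sulfur protein uqcrfs1 was at 70.8, 110.8, 22.5 and 163.1 CPM, and uqcrq, another small subunit, at 131.1, 144.8, 188.3 and 134.8 CPM. Of the complex III genes that passed in set 2, 4 of 6 were higher and 1 was lower. In the 24-h set 0 and 1 of 4 were, and in set 1 2 and 2 of 6. Among all genes that passed, 28.6% were higher and 28.6% lower in set 2. These shares were 30.2 and 30.7% in the 24-h set, and 37 and 29% in set 1.

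Complex IV, cytochrome c oxidase, had the gene carried by most wells. This was cox7c (ENSDARG00000104537, chromosome 5, 47726197 to 47727819), a small accessory subunit. Its lowest, median and highest wells were at 0, 515 and 5198 CPM in the control, 0, 44.1 and 17839 CPM in the 24-h set, 6.42, 1109 and 6531 CPM in set 1 and 0, 716 and 8002 CPM in set 2. It was carried by 64.2% of control wells (56.4 to 71.5%), 48.5% of 24-h wells (39.9 to 57.2%), 84.3% of set 1 (73.6 to 91.9%) and 66.3% of set 2 wells (58.6 to 73.4%). Only set 1 had an interval apart from the control, above it. With depth made equal and any count sufficing, these intervals overlapped. The shares were then 92.8% in set 1 (83.9 to 97.6%) and 80.6% in the control (73.7 to 86.3%). The pooled level was 808, 1254, 1509 and 963 CPM (0.63, 0.90 and 0.25).

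The next were cox7b, at 714, 890, 1200 and 924 CPM, and the cox7a2 gene on chromosome 17, at 660, 1508, 1424 and 935 CPM with ratios of 1.19, 1.11 and 0.50. Of these, cox7b was carried by 36.03% of 24-h wells (27.98 to 44.7%). This lay below the control interval of 46.02 to 61.7% around 53.9%. With depth made equal and any count sufficing, the intervals of cox7b overlapped. The shares were then 56.3% in the 24-h set (47.5 to 64.8%) and 68.5% in the control (60.8 to 75.5%). In the carrying wells its median was 1852 CPM, against 1040 in the control. For cox7a2 the carrying share did not fall, from 33.9% (26.8 to 41.7%) to 37.5% (29.4 to 46.2%), and the level went from 1662 to 3149 CPM.

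Other nuclear subunits of complex IV sit closer around the catalytic core. The level of cox4i1 was 183.9, 193.7, 344 and 269 CPM, that of cox5aa 195.3, 228, 292 and 270 CPM, that of cox5a 77.6, 150.9, 83.99 and 63.4 CPM, and that of cox5b on chromosome 10 247, 283, 466 and 286 CPM. The hypoxia-linked isoform known in mammals as COX4I2 has a zebrafish gene, cox4i2, that held 0.0305% of cox4 counts in the control. In the 24-h set 4 of 11 complex IV genes that passed were higher and 0 lower. In set 1 these were 7 of 12 and 1, and in set 2 1 of 10 and 0. Among all genes that passed, 30.2, 37 and 28.6% were higher and 30.7, 29 and 28.6% lower.

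The ATP synthase rise was widest in set 1: of 17 genes that passed, 13 were at least 1.5-fold higher and 0 lower. Of 17 in the 24-h set 8 were higher and 1 lower, and of 17 in set 2 4 and 1. In the 24-h set, set 1 and set 2, 30.2, 37 and 28.6% of all genes were higher. The shares lower were 30.7, 29 and 28.6%, and the set 2 count of higher genes was no excess. The most abundant gene was atp5po (ENSDARG00000001788, chromosome 9, 33145522 to 33148873), which encodes the stalk subunit OSCP. Its lowest, median and highest wells were at 0, 12.5 and 8281 CPM in the control, 0, 16.2 and 13442 CPM in the 24-h set, 0, 17.7 and 8352 CPM in set 1, and 0, 11.3 and 14078 CPM in set 2. Wells that carried it made up 41.8, 44.1, 42.9 and 39.1%, all within each other's intervals. Its pooled level was 1111, 2118, 1097 and 1177 CPM, so it stood apart only in the 24-h set (0.93), where the carrying wells had a median of 3975 CPM against 2468.

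The genes of the catalytic head did not move together. The alpha subunit atp5f1a was at 122.1, 190.5, 442 and 69.5 CPM, 1.86 above the control in set 1 and 0.81 below it in set 2 (-0.81). The beta subunit atp5f1b was lower than the control in each treated set, at 453, 251, 303 and 352 CPM (-0.85, -0.58 and -0.36), with 58.8% of the 24-h counts in 1 well. The gamma subunit atp5f1c was at 728, 928, 1008 and 856 CPM. The delta subunit atp5f1d was at 154.2, 333, 618 and 234 CPM, with ratios of 1.11, 2.00 and 0.60, the set 1 value being 1.77 without the highest wells.

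In set 1 the stalk subunits atp5pb and atp5pd were carried by 34.3% (23.3 to 46.6%) and 25.7% of wells (16.01 to 37.6%), against 12.1% (7.56 to 18.1%) and 10.9% (6.59 to 16.7%) in the control. Their pooled levels were 393, 413, 889 and 584 CPM and 141.2, 146.7, 400 and 176.2 CPM in control, 24-h, set 1 and set 2. The gene of the membrane ring atp5mc3b was at 476, 358, 858 and 565 CPM. In set 2 the small subunit atp5mj was the third largest rise of those that passed, from 53.2 to 143.1 CPM (1.43), with 52.9% of the set 2 counts in 1 well and 0.53 without the highest wells. Neither of the 2 genes for the inhibitor of ATP hydrolysis, atp5if1a and atp5if1b, passed 1.5-fold, and their sum was 408, 525, 299 and 461 CPM. Of the assembly factors, 1 passed the filter in set 1 and 0 in the other sets. This was ndufaf3, at 3.77 CPM in the control and 113.8 in set 1 (4.92), but 97.7% of that value came from 1 well, and without the highest wells the ratio was -0.09.

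The ndufa4 family was lower than the control in each treated set, as were complex II and the single genes atp5f1b, uqcrc1 and sdhb. In the control, ndufa4l2 held 95.3% of the family's counts. In mammals NDUFA4 is a subunit of complex IV, and NDUFA4L2 is a related protein induced by hypoxia. The single most abundant member in the control, ndufa4l2 (ENSDARG00000103114, chromosome 9, 323460 to 327901), was lower in all 3 treated sets, at 2892 CPM in the control (2881 to 2902), 2563 in the 24-h set (2551 to 2575), 2247 in set 1 (2230 to 2264) and 1942 in set 2 (1933 to 1952). The ratios of -0.17, -0.36 and -0.57 stayed under 1.5-fold. Its lowest, median and highest wells were at 0, 641 and 22308 CPM in the control, 0, 18.6 and 26951 CPM in the 24-h set, 5.09, 143.1 and 11514 CPM in set 1 and 0, 105.2 and 9661 CPM in set 2. Wells split into carriers and non-carriers, with 56.97% carriers in the control (49.04 to 64.6%), 38.2% in the 24-h set (30.0 to 46.95%), 51.4% in set 1 (39.2 to 63.6%) and 50.9% in set 2 (43.1 to 58.6%). Only the 24-h interval lay below that of the control. Of all genes compared in this way, 69% were carried by a smaller share of 24-h wells. With depth made equal and any count sufficing, the 24-h and control intervals of ndufa4l2 overlapped. The shares were then 79.3% in the 24-h set (71.4 to 85.8%) and 81.8% in the control (75.1 to 87.4%). Carriers had medians of 4237, 4573, 3857 and 3520 CPM.

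Per kilobase of exon, which makes genes comparable, ndufa4l2 ranked first of the members in the control with 2484 CPM per kb, ahead of cox7c with 2088. In the 24-h set, set 1 and set 2, cox7c ranked first with 3241, 3900 and 2487 CPM per kb, and ndufa4l2 stood at 2202, 1930 and 1669. The paralog ndufa4 was at 142.2, 192.2, 100.6 and 131.3 CPM, and ndufa4b and ndufa4l2b were close to 0.

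**Figure D4:**
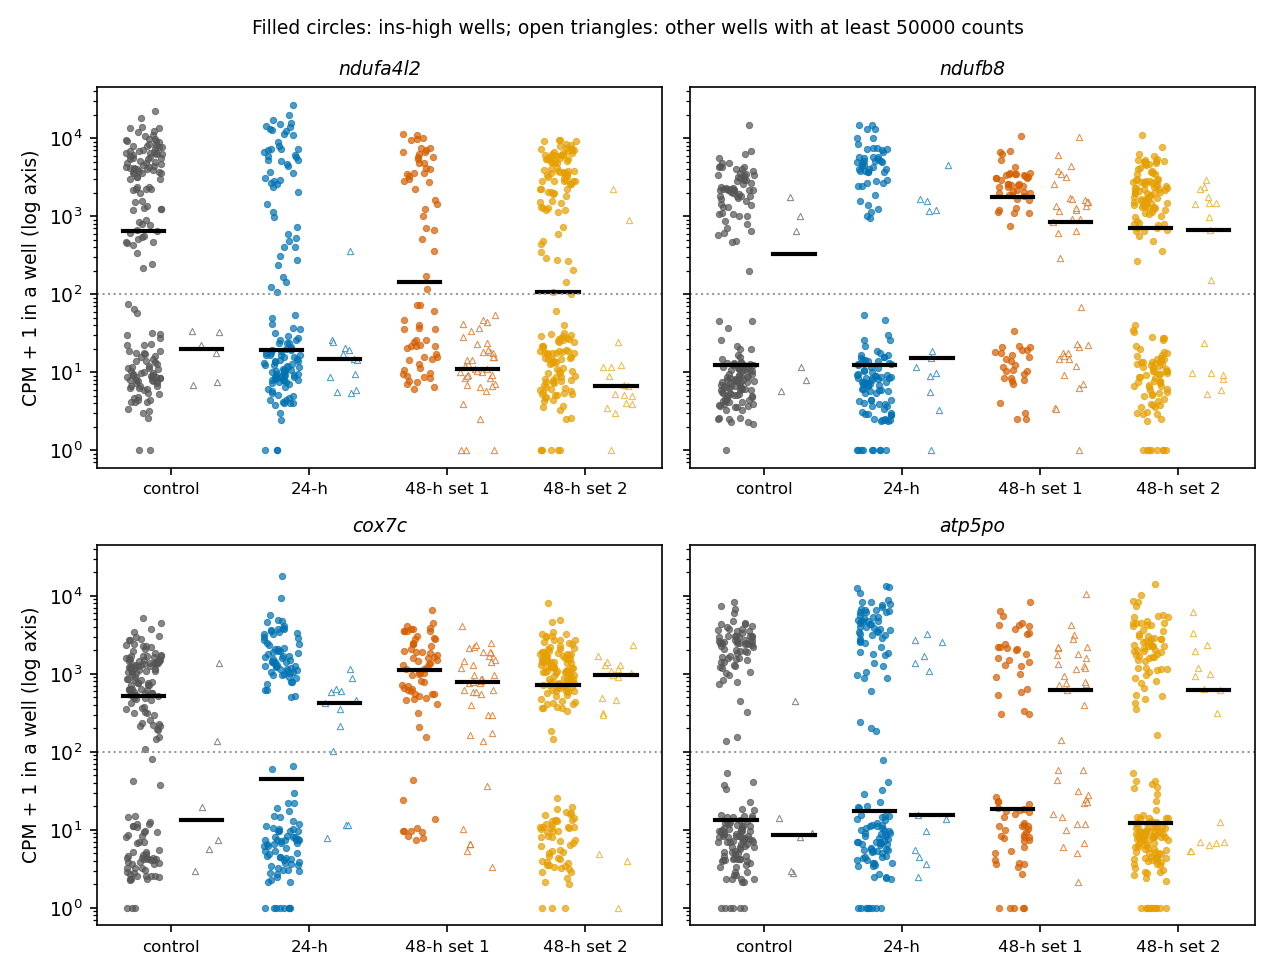
Level in each well (CPM + 1, log axis) of ndufa4l2, ndufb8, cox7c and atp5po by set; filled circles are ins-high wells, open triangles other wells with at least 50000 counts, black bars medians, and the dotted line marks 100 CPM. Ins-high wells split into a low and a high cloud for each gene, and the other wells lie in the low cloud for ndufa4l2 (carriers: 0 of 6, 1 of 13, 0 of 39 and 2 of 17) but in both clouds for the rest.

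The wells below the insulin limit gave a comparison within each plate. Those with at least 50000 counts numbered 6 control, 13 24-h, 39 set 1 and 17 set 2 wells, and are a mixture. Delta markers took from 63412 to 369669 CPM in them. Iridophore markers took 36844 and 31124 CPM in set 1 and set 2 but 10.1 CPM in the control. Beta markers, which include ins, took from 1637 to 3701 CPM, a value kept low by the choice of wells. The members together held 0.619, 1.35, 1.67 and 1.61% of their counts, which is -1.66, -0.96, -0.77 and -0.54 relative to the ins-high wells of the same set. In set 1, 43 of 72 members that passed were at least 1.5-fold lower in the other wells, against 47.9% of all 1694 genes, and 9 were higher, against 32.3%. The 67 members that passed in set 2 had 34 lower, against 52.2% of 1278 genes, and 10 higher, against 25.5%. The part of the mixture in these values was not tested.

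In these wells ndufa4l2 was nearly absent: 17.8 CPM in the control, 31.02 in the 24-h set, 13.0 in set 1 and 233 in set 2. For set 1 the ratio to ins-high wells was -7.44, the lowest of the 72 members, and for set 2 it was -3.06. At 100 CPM or more stood 0 of 6, 1 of 13, 0 of 39 and 2 of 17 wells. At least 1 count was present in 100, 100, 92.3 and 94.1% of the same wells, so a single count did not make a well a carrier here. The gene filter and the detection after drawing equal counts did rest on single counts. Among the other abundant genes, cox7c was at 1095 CPM in set 1 and 965 in set 2 in the other wells, against 1509 and 963 in ins-high wells, and atp5po at 1285 and 1117 CPM against 1097 and 1177. A few members were higher outside the ins-high wells. Of these, ndufc2, an accessory subunit of complex I, was at 436 CPM against 113.96 in set 1. The complex III core protein uqcrc2 was at 135.9 CPM against 38.7 in set 1 and 138.5 against 56.04 in set 2. Its ins-high levels rest on few wells: 2 in set 1 and 4 in set 2 were at 100 CPM or more, with 97.2 and 99.5% of the counts.

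Several subunits have duplicate genes in zebrafish, and near-identical copies can share reads, so their split is uncertain. By counts, the acyl carrier protein copies were closest to even in the control, where ndufab1 held 51.7% of the counts of ndufab1 and ndufab1b. Its share was 73.97, 77.9 and 71.3% in the 24-h set, set 1 and set 2. Per length of exon its shares were 64.2, 82.6, 85.5 and 80.6% in control, 24-h, set 1 and set 2. By that measure ndufa9, at 60.8% in the control, was closer to even. For subunit c of the ATP synthase ring, atp5mc3b held 52.4, 32.7, 46.4 and 44% of counts. The share of atp5mc1 was 32.4, 37.8, 35.1 and 42.8%, and that of atp5mc3 15.2, 29.5, 18.4 and 13.2%. Per length atp5mc1 was ahead of atp5mc3b in set 2, at 50.03 against 42.6%. Between cox5aa and cox5a, cox5aa held 71.6, 60.2, 77.7 and 81.01%. The first copies of atp5me (atp5meb), atp5if1 (atp5if1b) and cox7a (cox7a2 on chromosome 17) stayed ahead in every set. By counts their lowest shares were 72.7% for atp5meb, 72.8% for atp5if1b and 88.2% for cox7a2. Per length the lowest shares were 70.2, 63.5 and 74.04%. The splits of uqcrc2 (80.2, 55.6, 100 and 90.5%) and ndufa9 (72.1, 99, 82.035 and 81%) rest on few wells: 7 control wells had a count on ndufa9 and 3 on ndufa9b.

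**Figure D5:**
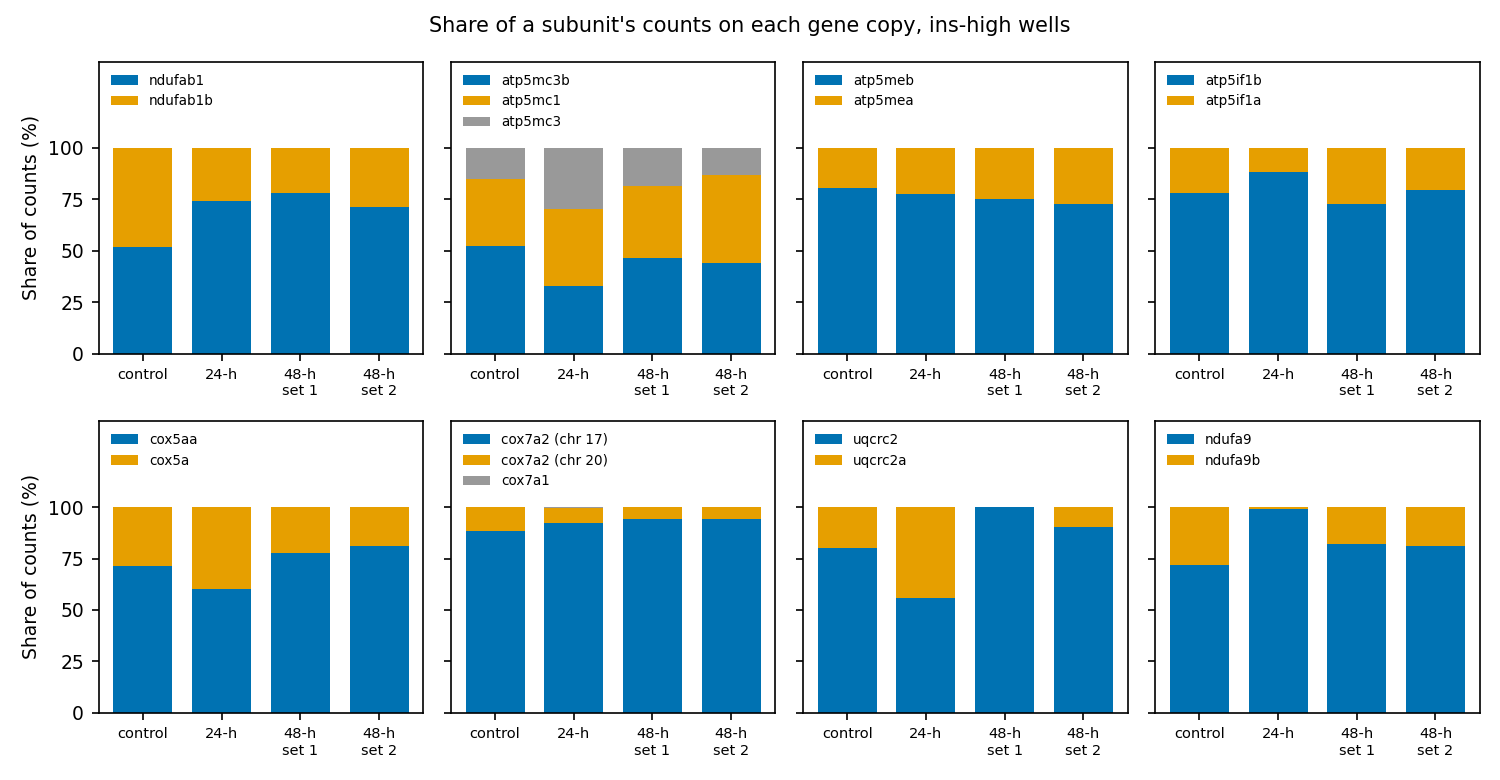
Share of a subunit's counts (%, vertical axis) on each gene copy in ins-high wells, as stacked bars for control, 24-h, set 1 and set 2, in 8 families. The copy ndufab1 goes from 51.7% in the control to between 71.3 and 77.9%, while atp5meb stays between 72.7 and 80.6%.

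Across ins-high wells members varied almost independently of each other. Over members with a count in at least 50% of wells (26, 26, 39 and 29 of them), the median Spearman correlation of log2(CPM + 1) was 0.05, 0.07, 0.06 and 0.07 in control, 24-h, set 1 and set 2, and within a complex 0.06, 0.09, 0.05 and 0.07. The extremes over all pairs were -0.27 and 0.40. The summed members correlated with ins at 0.35, 0.26, 0.40 and 0.30 and with the 13 mitochondrial genes at -0.07, -0.15, -0.04 and -0.05. These wells share a pool, a plate and the denominator, depth correlated with the sum at 0.18, 0.20, 0.25 and 0.20, and in counts this sparse such weak values are a description and no finding.

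The partners of the nuclear subunits were read from fixed lists. Cytochrome c, the electron carrier between complexes III and IV, was higher in all 3 treated sets: cycsb was at 563 CPM in the control and 1241, 1329 and 1140 CPM in the 24-h set, set 1 and set 2 (1.14, 1.24 and 1.02), with a count in 78.8, 88.97, 90.0 and 92.3% of wells. The list with cycsb held other electron carriers, genes of coenzyme Q synthesis and cyc1, a complex III subunit outside the symbol rule. Of its 17 genes found, 5, 6 and 5 passed, of which 3, 3 and 2 were higher and 1 in each set was lower. Among all genes that passed, 30.2, 37 and 28.6% were higher and 30.7, 29 and 28.6% lower. The coenzyme Q binding protein coq10b was higher, at 45.8, 151.1, 105.7 and 212.8 CPM. The electron transfer flavoprotein subunit etfa was lower, at 154.035, 28.2, 54.3 and 94.2 CPM. Its partner subunit etfb did not follow, at 77.1, 243.2, 54.9 and 80.2 CPM (1.66, -0.49 and 0.06). Among 20 complex IV assembly genes 2, 3 and 2 passed, of which 1, 3 and 2 were higher, with the copper chaperone cox17 at 225, 408, 467 and 381 CPM.

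The 13 protein-coding genes of the mitochondrial genome, which encode further subunits of complexes I, III, IV and V, did not all move in the same direction. Their sum was 0.36, 0.12 and 0.35 above the control, and of the 12, 13 and 12 that passed, 3, 2 and 1 were higher and 1, 2 and 0 lower. The complex IV gene mt-co3 was at 9108, 15244, 16715 and 11649 CPM and the complex I gene mt-nd5 at 1734, 1129, 865 and 1241 CPM. The ADP/ATP carrier slc25a5 stayed level at 1251, 1190, 1195 and 1252 CPM. Of 14 citrate cycle genes found, 3, 4 and 3 of their gene entries passed, of which 1, 1 and 0 were higher and 1, 0 and 1 lower. None of 10 regulators of mitochondrial biogenesis found, such as nrf1 and tfam, passed the filter in any set. For these lists too, the shares of all genes were 30.2, 37 and 28.6% higher and 30.7, 29 and 28.6% lower.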

How the data were processed

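The authors deposited 1 table of raw counts per gene for 697 wells. Reads were demultiplexed with bcl2fastq 2.19.1, trimmed, aligned to GRCz11 with GSNAP and counted with featureCounts 2.0.1 on Ensembl gene models. Counting did not use molecular identifiers, and reads of overlapping or near-identical genes cannot be assigned to one of them. The 92 spike-ins were left out of all totals.

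Counts were summed over wells of a set and given per 1000000 counts on genes (CPM), with exact 95% Poisson intervals; shares of wells carry exact Clopper-Pearson intervals. The methods of the study gave the limits of 200 genes and 40% mitochondrial counts. Every set is 1 sample, so no test was run. A difference was called past 1.5-fold. Members and lists were chosen with earlier results of these data known. Genes were named where they were the 3 highest of a complex in the control, the 3 largest rises or falls of a comparison, catalytic core subunits, ndufa4 genes or paralogs with at least 10% of counts; others were chosen after their values were seen. Alternatives covered scaling, well and gene filters, marker-rich wells and leaving out wells. Scripts were written in Python 3.11.15 (scipy 1.17.1, pandas 2.3.3, numpy 2.4.6; figures with matplotlib 3.10.9) and tested on simulated data. The 4 wells labelled NC or RNA had no group and entered no comparison. Values of 1 member are not reported here.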

Additional observations from a re-analysis of the deposited data

Results flagged for a closer look

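The alpha subunit of the ATP synthase, atp5f1a, was 1.86 above the control on the log2 scale in 48-h set 1 and -0.81 relative to it in 48-h set 2, although both sets had the same label for treatment and sat on 1 plate. Both values passed 1.5-fold, in opposite directions, and with 1 sample per set the difference was not tested. Pooled levels were 442 CPM in set 1 and 69.5 CPM in set 2, and the highest well held 32.95 and 18.3% of the counts. Without each set's highest well the ratios were 1.63 and -0.77. Wells at 100 CPM or more numbered 16 in the control, 13 in set 1 and 15 in set 2. Their shares of 9.70% (5.64 to 15.3%), 18.6% (10.3 to 29.7%) and 8.88% (5.05 to 14.2%) had overlapping intervals. With depth made equal and any count sufficing, the shares were 17.6, 37.7 and 17.3%. The set 2 share was thus close to the control.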

How the results depend on the processing

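Of 200 recomputed values, 96 stayed within a set limit, 1 reversed and the others were labelled as moved. The limit was counting error for ratios and shares of wells, a small fixed step for correlations and 1.5 times for counts. It does not measure the spread over wells. Ratios of single named genes had no limit and could only be labelled as moved or reversed. The reversed value was ndufaf3 in set 1, at -0.087 without each set's highest well for that gene, since 97.7% of its set 1 counts were in 1 well. The summed ratio and the median member ratio stayed above 0 in the 24-h set, set 1 and set 2 under all settings below. A ratio above 0 is not by itself a rise beyond that of all genes. In set 1 the median member lay below the median of all genes when each gene with 1 count was kept (0.65 against 1.04). Marker-rich wells, highest wells of each gene and the 100 CPM limit were chosen after seeing the data.

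With counts outside the mitochondrial chromosome as total, the summed log2 ratios in the 24-h set, set 1 and set 2 were 0.50, 0.61 and 0.37 and the member medians 0.48, 0.68 and 0.50. Leaving ins out too gave 0.55, 0.65 and 0.38, and medians of 0.53, 0.72 and 0.51. Median-of-ratios scaling gave 0.34, 0.34 and 0.25, and medians of 0.31, 0.41 and 0.38, with 13 members lower in set 1 in place of 8. The mean of the wells' CPM gave 0.40, 0.53 and 0.26, and medians of 0.37, 0.73 and 0.37. At most 20% mitochondrial counts gave 0.43, 0.56 and 0.27, and medians of 0.40, 0.66 and 0.37. Over 10000 ins counts gave 0.42, 0.56 and 0.26, and medians of 0.34, 0.72 and 0.38. At least 200000 counts per well gave 0.44, 0.55 and 0.27, and medians of 0.45, 0.64 and 0.38. A mean of at least 50 CPM gave 0.43, 0.56 and 0.25, and medians of 0.43, 0.65 and 0.38, beside 0.25, 0.47 and 0.03 for all genes. Keeping each gene with 1 count gave medians of 0.34, 0.65 and 0.45, beside 0.16, 1.04 and 0.40 for all genes. This setting had 39 members higher and 20 lower in the 24-h set, 16 lower in set 1, and 43 higher and 11 lower in set 2. Here all genes had 38.8, 56.2 and 45.2% higher in the 24-h set, set 1 and set 2 and 38, 26.9 and 34% lower, so that with 38.6, 55 and 42.6% of members higher no excess over the background was left. Subunits of complexes I to V alone gave 0.51, 0.68 and 0.37, and medians of 0.41, 0.65 and 0.42. Leaving out the well with the most member counts in each set gave 0.43, 0.56 and 0.27, and medians of 0.45, 0.62 and 0.36. Leaving out marker-rich wells gave 0.42, 0.56 and 0.26, and medians of 0.37, 0.72 and 0.38. Leaving out each gene's highest well gave 0.31, 0.39 and 0.24, and medians of 0.20, 0.38 and 0.33, with 15 and 17 members lower in the 24-h set and set 1. A 2-fold limit left 12 higher and 3 lower of 61, 19 and 5 of 69, and 9 and 2 of 63, against 17.6 and 22.4%, 25.2 and 22.7%, and 16.7 and 18.7% of all genes. Wells at 100 CPM or more in place of thinned detection gave 8.18, 4.78 and 8.28% for the median member in control, 24-h and set 2. Mean CPM of wells put the other wells at -1.75, -0.93, -0.79 and -0.66 relative to ins-high wells in control, 24-h, set 1 and set 2. For values that moved, the cause was not tested.

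No paired analysis was possible because the labels give no replicate number to the sets. Promoter motifs were not run. Each set is 1 sample and treatment was tied to plate, so ratios carry no replicate error, and counting intervals are far narrower than the spread over wells. For complexes II and III a few wells set the pooled value.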

Other observations

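The 4 wells that the labels put in no group also held members. The well labelled NC had 67 of 3617 counts on them, 1.85% (1.44 to 2.35%), over 24 genes, and spike-ins took 54.4% of all its counts. The 3 wells labelled RNA had 0.965, 0.864 and 0.799% of their counts on members, with between 42 and 54 members seen.

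The wells left out because over 40% of their counts were mitochondrial numbered 2 control, 4 24-h, 17 set 1 and 20 set 2 wells. Members held 0.865, 0.0175, 0.297 and 0.437% of their counts. Among counts outside the mitochondrial chromosome the shares were 2.96, 0.0767, 2.67 and 1.75%.

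Among the other wells with fewer than 50000 counts, 17 in each 48-h set, spike-ins took a median of 61.2 and 69.2% of counts. The median depth of these wells was 7330 and 4398 counts on genes, while the limit of 1000 ins counts did not scale with depth. Beta markers took 35828.5 and 47801 CPM in them, against 1637 and 2043 CPM in the deeper other wells. They are thus not shown to be poor in insulin. Members held 0.892 and 2.98% of the pooled counts on genes. The median well was alike in set 1 and set 2, at 1.38 and 1.50%, while the highest well held 2.45 and 14.3%.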
